A study of Solanum lycopersicum with 30 samples.

Results

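Plasma membrane aquaporins of the PIP family are channels through which water can cross the outer membrane of plant cells. The family was followed through 10 listed gene models of tomato, spanning its PIP1 and PIP2 subfamilies, and 9 of the 10 identifiers had a row in the table of 35596 gene counts. Solyc09g007770 is not analysed here. Of the 9, Solyc10g084120 had 0 counts in all 30 libraries, which allows a level of up to 0.012 counts per 1000000 (CPM) over the libraries together, taking 3 counts as the limit for a count of 0. The other 8 passed the filter on low counts and were tested with 19423 further rows. By the numbering of tomato gene models, the 9 members lie on chromosomes 1, 3, 6, 8, 9, 10, 11 and 12, with both Solyc08g008050 and Solyc08g081190 on chromosome 8. The files pair identifiers with protein database entries and give no gene names, so the members are called by identifier, and they do not say which identifier is a PIP1 and which a PIP2.

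PIP channels work as tetramers whose pores open and close with the phosphorylation state of the protein, with cytosolic acidification and with calcium. In many plants PIP1 proteins reach the plasma membrane efficiently only when assembled with PIP2 proteins, which are the stronger water channels in test systems, and some PIP1 proteins also pass carbon dioxide. In leaves, PIP channels carry water from the xylem through the bundle sheath and the mesophyll towards the sites of evaporation. Their transcript level does not measure the amount or the activity of channel protein.

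RNA was measured in leaf 4 of tomato (Solanum lycopersicum) plants, dissected into a vein-enriched part and the intervein part between the veins, in 10 groups of 3 libraries. T0 plants were watered and taken at 25 days after sowing. T1 plants were taken at 29 days, either watered or after 6 days without water (drought), and T2 plants were watered throughout or were drought plants that had been returned to watering (recovered), taken 3 days after rewatering by one part of the protocol. The labels name no cultivar, transgene or agent. Enrichment is by dissection, so each part holds several cell types, and in such bulk samples fewer cells of a type and less RNA per cell cannot be told apart.

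Total counts per library ran from 2718799 to 13641845. The tissue of each library was checked with a score made of genes that differed between vein and intervein at T0, with the PIP members left out. In the T0 libraries, which served to pick the genes, the score was 1.87 to 2.05 in vein and -4.11 to -2.99 in intervein. That T0 separation was set by the choice of genes. In the watered libraries of T1 and T2 the score was 0.69 to 1.97 in vein and -3.14 to -2.45 in intervein. Of the recovered libraries, the one labelled vein T2 recovered 2 scored -3.15 and the one labelled intervein T2 recovered 1 scored 0.48, so both went against their labels. An intermediate score of -0.54 was found for vein T1 drought 2. The other drought vein libraries scored 1.23 and 1.07, so all of that group lay below watered vein at T1, with 1.97, 1.64 and 1.37. Whether the lower PIP levels of drought vein go with this lower score was not tested. Intervein T1 drought 1 had the fewest genes detected, 13740 against 15167 to 20143 in the other libraries, and 12.2% of its counts in rows of non-coding RNA models. The next highest shares in those rows were 10.7% in vein T0 watered 2, the watered vein library with the lowest summed PIP level, and 7.6% in intervein T1 drought 2. Estimates without vein T2 recovered 2, intervein T2 recovered 1, vein T1 drought 2 or intervein T1 drought 1 are given beside some of the results they move.

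Together the 9 members took between 0.0359% and 0.493% of the counts of a library. The summed level was highest in watered vein and lowest in intervein under drought. In vein it was 4379, 1596 and 2383 CPM at T0, 1975, 2702 and 2661 CPM in watered plants at T1 and 1479, 628 and 1123 CPM in drought plants at T1. At T2 it was 2548, 3106 and 2343 CPM in watered vein and 2640.4, 722 and 1988 CPM in recovered vein, where 722 CPM is the library whose tissue score goes against its label. The drought libraries of vein thus lay below all the watered vein libraries. The recovered ones spread over the range from drought to watered, reaching the drought range only through vein T2 recovered 2, the 722 CPM library. On raw library totals vein T1 drought 1, at 1638 CPM, lay above vein T0 watered 2, at 1585 CPM, and below the other watered vein libraries.

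In intervein the summed level was 1375, 1115 and 869 CPM at T0, and 803, 1290.0 and 1849 CPM in watered against 899, 513 and 341 CPM in drought plants at T1. Those T1 groups overlapped only through intervein T1 drought 1, the 899 CPM library with the fewest genes detected. On raw library totals they were apart, with 801, 507 and 359 CPM under drought and 845, 1163 and 1248 CPM in watered plants. At T2 it was 1180.0, 1892 and 2186 CPM in watered and 1264, 818 and 1145 CPM in recovered intervein. The overlap at T2 came only from the 1264 CPM of intervein T2 recovered 1, whose tissue score goes against its label. On raw totals these groups were apart as well, with 1323, 648 and 1029.6 CPM in recovered and 1374, 2011 and 2072 CPM in watered plants. Most of these counts came from a few members, with Solyc08g081190 at 31.7% of all PIP counts over the 30 libraries, Solyc11g069430 at 25.8%, Solyc12g056220 at 15.6% and Solyc09g007760 at 11.8%. Solyc03g096290 supplied 10.8%, Solyc01g094690 3.35%, Solyc06g011350 0.937% and Solyc08g008050 0.0317%. These shares are of counts that are not corrected for transcript length, so they do not rank the genes by number of molecules.

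**Figure D1:**
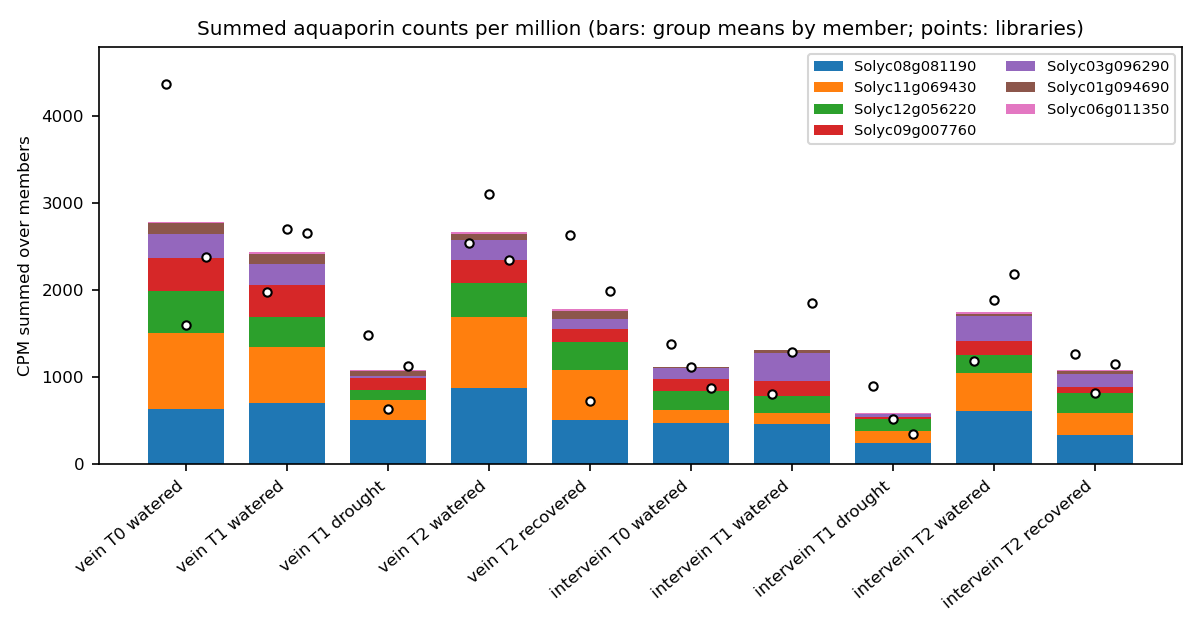
Summed CPM of the PIP members by group. Bars stack the mean of 3 libraries for each of 7 members (Solyc08g008050 and Solyc10g084120 are too low to draw), and open points are the sums in single libraries; the 3 vein T1 drought libraries (628 to 1479 CPM) lie below all watered vein libraries (1596 to 4379 CPM), except that on raw library totals vein T1 drought 1 exceeds vein T0 watered 2.

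**Figure D2:**
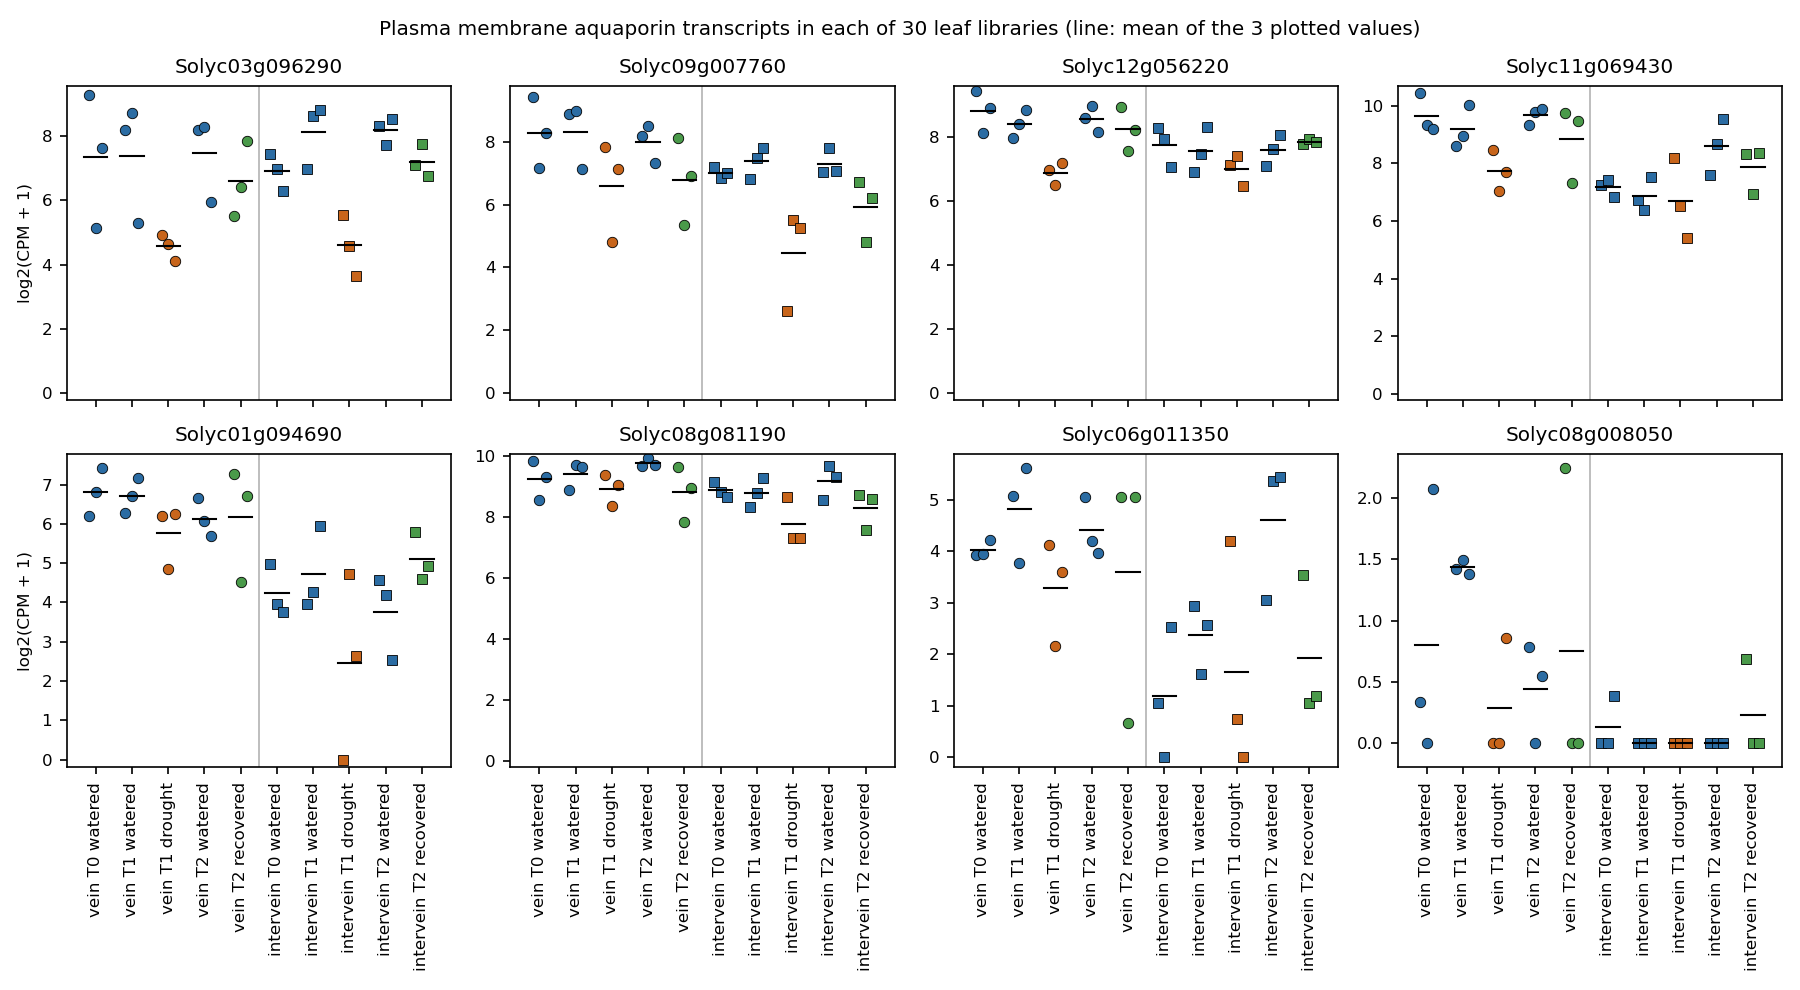
Level of 8 PIP members in each library on a log2(CPM + 1) axis. Circles are vein and squares intervein, blue is watered, orange drought and green recovered, with the mean of the plotted values as a line; Solyc03g096290 is lowest under drought in both tissues, and Solyc01g094690 and Solyc11g069430 are higher in watered vein than in watered intervein.

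The first comparison asked which tissue of the watered leaf carries more of each transcript. Over the 3 watered groups of each tissue, 4 of the 8 tested members were called higher in vein and 0 higher in intervein (edgeR, adjusted p under 0.05). In the same test 13.4% of all rows were called higher in vein and 13.8% lower. Solyc08g008050 had 0 counts in some groups and gets no fitted fold; the median log2 fold change of the other 7 members was 1.14 towards vein, against 0.09 over all rows, and all 7 were positive. With 9 libraries a side, none of the 8 was free of overlap between the tissues, which held for 2.85% of all rows towards vein.

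Solyc11g069430 was the abundant vein-preferred member. In vein it was at 1380.3, 642 and 577 CPM at T0, at 385, 498 and 1049 CPM in watered plants at T1 and at 636, 879 and 946 CPM in watered plants at T2. The corresponding intervein libraries had 149, 172 and 112 CPM, then 105, 81.5 and 183 CPM, and then 191, 404 and 737 CPM. The tissues were apart at T0 and T1 and overlapped at T2, where watered intervein was at 444 ± 275 CPM (SD, n = 3). Over the watered groups the log2 fold change was 1.95 ± 0.39 (SE; edgeR adjusted p = 0.000704).

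Solyc01g094690 showed the steepest vein preference among the members with more than a few counts. It was at 72.7, 111 and 169 CPM in vein at T0, against 30.7, 14.7 and 12.4 CPM in intervein. In watered T1 plants it was at 76.6, 103 and 142 CPM in vein and at 14.4, 18.2 and 60.7 CPM in intervein. In watered T2 plants it was at 100.04, 65.9 and 50.2 CPM in vein and at 22.7, 17.1 and 4.77 CPM in intervein. At each of the 3 times every vein library lay above every intervein library, and the overlap over all 9 libraries a side came from intervein T1 watered 3 and vein T2 watered 3. Its log2 fold change between the tissues was 2.23 ± 0.53 (SE; edgeR adjusted p = 0.00293).

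Solyc12g056220 was higher in vein by a smaller factor. Its levels in vein were 697, 278 and 479 CPM at T0, 249.7, 337 and 456 CPM at T1 and 390.2, 499.8 and 284 CPM at T2 in watered plants. In intervein they were 309.9, 242 and 133 CPM, 119.5, 177 and 317 CPM, and 135, 197 and 268 CPM. The tissues overlapped at T0 and T1 and were apart at T2. Between the tissues the log2 fold change was 0.94 ± 0.25 (SE; edgeR adjusted p = 0.00636).

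Solyc08g008050 was the member closest to the detection limit. The 9 watered vein libraries held 98 counts of it and the 9 watered intervein libraries held 3, all in intervein T0 3, a ratio of 24.9 after scaling with a 95% counting interval of 8.26 to 123. That interval covers counting error only. The gene was called higher in vein (edgeR adjusted p = 0.0259), a call that was lost without vein T0 3, which held 29 of the 98 counts, and by DESeq2. In intervein it had 0 counts in all drought libraries and in all watered libraries at T1 and T2.

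The remaining 4 members were not called between the tissues. Solyc09g007760 had a log2 fold change of 1.14 ± 0.44 (SE) towards vein with an edgeR adjusted p of 0.0587, and its levels in watered vein spread from 138 to 688 CPM against 112 to 224 CPM in watered intervein. It was called by DESeq2 (adjusted p = 0.0302), which called 4 members and 32% of all rows. In an edgeR fit without the 2 T2 libraries that go against their labels it was called too (adjusted p = 0.0479), among 28.3% of rows. Solyc06g011350 had 1.73 ± 0.77 (adjusted p = 0.1) and was called when the watered groups were fitted alone (adjusted p = 0.0134), a fit that called 6 members and 32% of all rows. Watered intervein held it at 0 to 7.26 CPM except in T2 watered 2 and 3, which had 39.9 and 42.5 CPM.

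Solyc08g081190, the member with the most counts, had a log2 fold change of 0.52 ± 0.27 (SE; edgeR adjusted p = 0.155). It was at 374 to 976 CPM in watered vein and at 319 to 805 CPM in watered intervein. Solyc03g096290 had 0.13 ± 0.48 (adjusted p = 0.902), a 95% interval from -0.86 to 1.12. This member varied widely among watered vein libraries, with 618, 33.9 and 196 CPM at T0, 289, 419 and 37.8 CPM at T1 and 293, 309 and 60.4 CPM at T2. Its intervein levels in watered plants ran from 77.8 to 448 CPM, with no library as low as the lowest of vein.

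**Figure D3:**
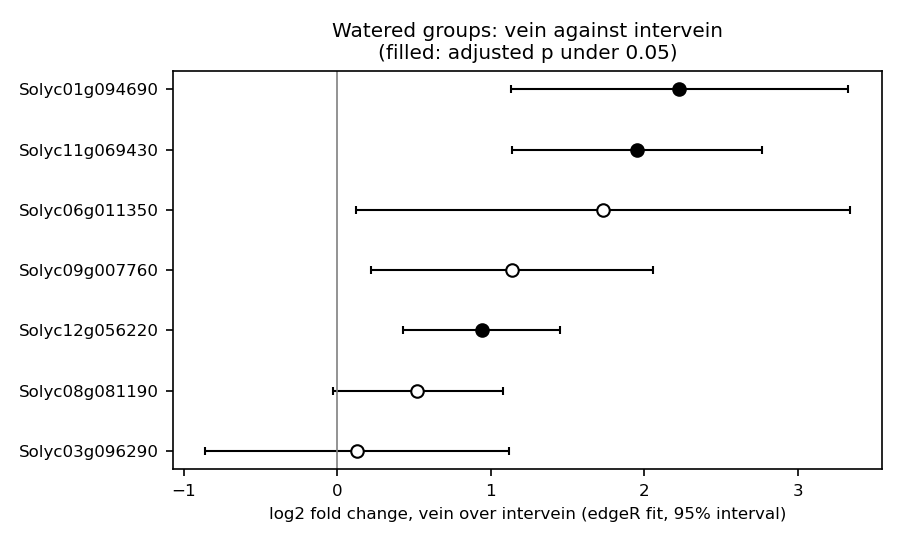
Log2 fold change of 7 PIP members between watered vein and watered intervein. Points are edgeR estimates from 9 libraries a tissue, bars are 95% intervals and filled points have an adjusted p under 0.05; estimates run from 0.13 for Solyc03g096290 to 2.23 for Solyc01g094690.

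The second comparison asked how 6 days without water changed the family. In vein all 8 tested members had a negative log2 fold change, with a median of -1.51 against 0 over all rows, where 50.3% of rows were negative. None was called by edgeR at an adjusted p under 0.05, in a comparison that called 0.695% of all rows. An unadjusted p under 0.05 was found for 3 of the 8 members and for 2340 of the 19431 tested rows. DESeq2 called 2 members, both lower, and 4.51% of all rows. The drought and watered libraries did not overlap for 5 of the 8 members, all lower under drought, a pattern shown by 12% of all rows.

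Solyc03g096290 had the largest estimate in vein. It was at 29.5, 24.1 and 16.4 CPM under drought and at 289, 419 and 37.8 CPM in watered vein. All drought libraries lay below all watered ones, and watered 3 stood close to them. The mean was 10.7-fold lower under drought, with a log2 fold change of -3.41 ± 0.91 (SE; edgeR adjusted p = 0.074). The authors' deposited table gives -3.46 with an adjusted p of 0.00194 for the same contrast, and 4.52% of the rows it adjusted are under 0.05. In edgeR the adjusted p ranged from 0.0541 to 0.273 over the other settings and left-out libraries.

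Solyc12g056220 was at 125, 89.3 and 147 CPM in vein under drought and at 249.7, 337 and 456 CPM in watered vein. The groups were apart, with the highest drought library at 147 CPM and the lowest watered one at 249.7 CPM. The log2 fold change was -1.53 ± 0.43 (SE; edgeR adjusted p = 0.0951), and the authors' deposited table gives -1.57 with an adjusted p of 0.0162. The estimate was -1.36 when vein T1 drought 2, with its intermediate tissue score, was left out.

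Solyc11g069430 was at 355, 130.0 and 209 CPM under drought and at 385, 498 and 1049 CPM in watered vein. The groups did not overlap, and the log2 fold change was -1.48 ± 0.67 (SE; edgeR adjusted p = 0.356). Solyc09g007760 was at 226, 27.3 and 139.7 CPM against 465, 501 and 138 CPM, which overlapped, with -1.49 ± 0.77 (adjusted p = 0.451). Its lowest value came from vein T1 drought 2, and leaving out that library gave -1.01.

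Solyc01g094690 was at 72.6, 27.8 and 75.3 CPM under drought and at 76.6, 103 and 142 CPM in watered vein, which did not overlap by a margin smaller than the spread within either group. Its log2 fold change was -0.87 ± 0.87 (SE; edgeR adjusted p = 0.828), and -0.54 with the same library left out. On raw library totals its groups overlapped, so that 4 of the 8 members were apart. The 12% of all rows is on scaled totals, and the share on raw totals was not computed. Solyc08g081190 had the estimate closest to 0, with 655, 326 and 524 CPM in drought and 475, 829 and 789.7 CPM in watered vein, which overlapped, and -0.48 ± 0.46 and a 95% interval from -1.44 to 0.48. Solyc06g011350 had -1.58 ± 1.31, and Solyc08g008050 had 7 counts in drought against 57 in watered vein. Vein T1 drought 2 was the lowest drought library for Solyc01g094690, Solyc08g081190, Solyc12g056220, Solyc06g011350, Solyc09g007760 and Solyc11g069430. Without it the estimate of Solyc08g081190 was -0.24, that of Solyc06g011350 -1.16 and that of Solyc11g069430 -1.19, and the median of the 7 members other than Solyc08g008050 was -1.16, against -1.49 with it.

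In intervein, 1 of the 8 members was called lower under drought and 0 higher, where 2.68% of all rows were called lower and 2.51% higher. The median log2 fold change of 7 members was -0.94 against -0.08 over all rows, with 5 values below 0 and 2 above, and Solyc08g008050 had 0 counts on both sides. Libraries did not overlap for 2 of the 8, both lower under drought, against 12.3% of all rows.

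Solyc03g096290 was the member called. It fell from 125, 391 and 448 CPM in watered intervein to 46, 23.1 and 11.6 CPM under drought. The groups were apart, and the mean was 11.9-fold lower. The log2 fold change was -3.58 ± 0.92 (SE; edgeR adjusted p = 0.0284), and the authors' deposited table gives -3.65 with an adjusted p of 0.000466, among 11.4% of its rows under 0.05. The call was lost without any 1 of drought 2 and 3 and watered 2 and 3 of intervein T1 (adjusted p from 0.0693 to 0.116, estimates from -3.62 to -3.22) and in a fit of the 6 libraries of intervein T1 alone (adjusted p = 0.146), which called 0% of all rows. Without drought 1 it was kept, at -4.28 (edgeR adjusted p = 0.0316).

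Solyc09g007760 was at 5.09, 45 and 36.8 CPM under drought and at 112, 178 and 224 CPM in watered intervein. The groups did not overlap, and the mean was 5.91-fold lower under drought. The log2 fold change was -2.56 ± 0.80 (SE; edgeR adjusted p = 0.0615). Without the 2 T2 libraries that go against their labels it was called, at -2.63 (edgeR adjusted p = 0.0429), in a fit that called 6.25% of all rows. DESeq2 called it as well (adjusted p = 0.00603), with 2 members and 13.3% of all rows called in all. The authors' deposited table gives -2.66 with an adjusted p of 0.00717. The lowest value, from 24 counts, was in intervein T1 drought 1, and without that library the estimate was -2.13 (edgeR adjusted p = 0.142).

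The other members of intervein were not called. Solyc01g094690 was at 0, 25.6 and 5.2 CPM under drought against 14.4, 18.2 and 60.7 CPM, with -1.58 ± 0.90 (SE). Solyc08g081190 was at 402, 158 and 157 CPM against 319, 443 and 612 CPM, with -0.94 ± 0.46, and Solyc12g056220 was at 139, 171 and 88.5 CPM against 119.5, 177 and 317 CPM, with -0.62 ± 0.43. All these groups overlapped, that of Solyc08g081190 only through the 402 CPM of intervein T1 drought 1. Without that library Solyc08g081190 had -1.61 (edgeR adjusted p = 0.0651). The estimate of Solyc01g094690 was -1.08 without drought 1, -3.58 without drought 2 and -0.65 without watered 3, none of them called.

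Solyc11g069430 and Solyc06g011350 had small positive estimates in intervein that changed sign when single libraries were left out. Solyc11g069430 was at 289, 90.3 and 41.9 CPM under drought and at 105, 81.5 and 183 CPM in watered intervein, with a log2 fold change of 0.19 ± 0.65 (SE). Solyc06g011350 was at 17.4, 0.668 and 0 CPM against 6.63, 2.05 and 4.9 CPM, with 0.38 ± 1.33. The highest value of both was in intervein T1 drought 1, the library with the fewest genes detected and 12.2% non-coding RNA counts. Without it the estimates were -0.96 and -3.83, neither of them called.

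**Figure D4:**
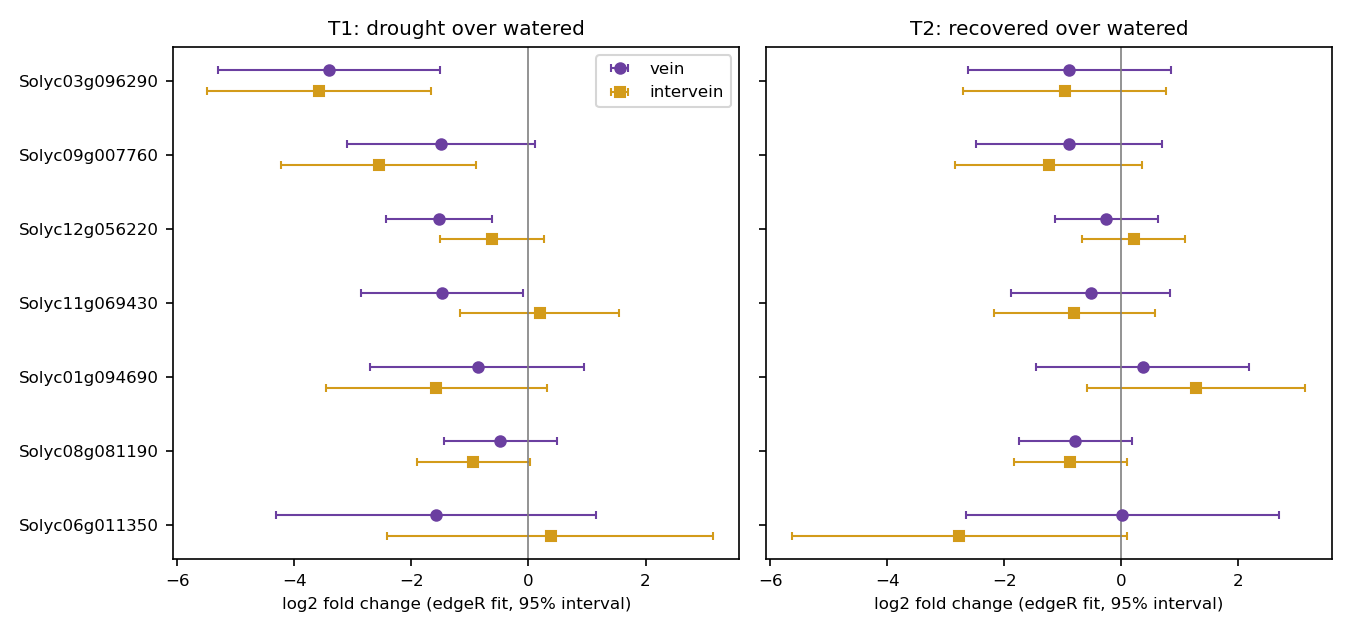
Log2 fold changes of 7 PIP members for drought against watered at T1 (left) and recovered against watered at T2 (right). Points are edgeR estimates from 3 libraries against 3, circles for vein and squares for intervein, and bars are 95% intervals; at T1 both estimates of Solyc03g096290 lie below -3, and at T2 all 14 intervals include 0.

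Whether the tissues responded differently to drought was tested as a difference of responses. None of the 8 members was called by edgeR, in a test that called 0% of all rows. At an unadjusted p under 0.05 there were 0 members and 1098 of the 19431 tested rows. DESeq2 called 0 members and 0.381% of all rows. The difference for Solyc03g096290 was 0.17 ± 1.17 (SE) log2 units, with a 95% interval from -2.28 to 2.62. For Solyc11g069430 it was -1.67 ± 0.93, with an interval from -3.60 to 0.27, and -0.52 without intervein T1 drought 1. For Solyc12g056220 it was -0.91 ± 0.60 (interval -2.16 to 0.34) and for Solyc09g007760 1.07 ± 1.07 (interval -1.17 to 3.30). For Solyc06g011350 it was -1.96 ± 1.86 (interval -5.84 to 1.93), and it changed sign to 2.24 without intervein T1 drought 1. For Solyc08g081190 it was 0.46 ± 0.65, and 1.13 without the same library. Neither member was called with or without that library.

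Within the family, the make-up of the summed level differed between drought and watered vein. Solyc08g081190 took 44.3% to 52% of the summed CPM in the 3 vein drought libraries, against 20.7% to 35.3% in the watered vein libraries. In intervein its share overlapped, at 30.7% to 46.1% under drought and 33.1% to 39.8% in watered plants at T1. Its own level in vein was 502 ± 165 against 698 ± 194 CPM (SD, n = 3) at T1, so the larger share went with lower levels of the other members. Solyc03g096290 took 1.46% to 3.84% in vein under drought and 1.42% to 15.5% in watered vein at T1. In intervein its share was 3.41% to 5.12% under drought against 15.6% to 30.3% in watered plants at T1. Shares of a sum are not independent of each other, and these were not tested.

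The third comparison asked how the family stood after rewatering. None of the 8 members was called by edgeR between recovered and watered plants at T2, in vein or in intervein. Of all rows 1.57% and 0.772% were called. In either tissue 0 members had an unadjusted p under 0.05, against 3478 of the 19431 tested rows in vein and 3381 in intervein. DESeq2 called 0 members as well, with 8.8% of all rows called in vein and 7% in intervein. The median log2 fold change of the 7 members other than Solyc08g008050 was -0.52 in vein and -0.88 in intervein, against 0 and 0.07 over all rows.

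Solyc03g096290 was at 44.9, 83.4 and 230.0 CPM in recovered vein, against 293, 309 and 60.4 CPM in watered vein at T2 and 16.4 to 29.5 CPM under drought at T1. In intervein it was at 136, 213 and 107 CPM in recovered plants, against 316, 208 and 365 CPM in watered plants at T2 and 11.6 to 46 CPM under drought at T1. In both tissues every recovered library lay above every drought library, while recovered and watered libraries overlapped. The same separation from drought held for 2 of the 8 members in each tissue, Solyc03g096290 and Solyc12g056220, and for 9.68% of all rows in vein and 12.2% in intervein. It runs across times and was not tested, and on raw library totals Solyc12g056220 overlapped in vein. The log2 fold change against watered plants was -0.89 ± 0.83 (SE) in vein and -0.96 ± 0.83 in intervein.

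Solyc12g056220 in recovered plants was at 494, 190.3 and 294 CPM in vein and at 218, 243 and 230.3 CPM in intervein. The log2 fold change against watered plants was -0.26 ± 0.42 (SE) in vein and 0.21 ± 0.42 in intervein, with 95% intervals from -1.14 to 0.62 and from -0.68 to 1.09. Solyc11g069430 was at 849, 157 and 710.4 CPM in recovered vein, where 157 CPM is the library that goes against its label, and at 322, 121 and 323 CPM in recovered intervein. Its estimates were -0.52 ± 0.65 and -0.80 ± 0.66.

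Solyc09g007760 and Solyc08g081190 had lower means in recovered plants of both tissues, and neither was called. Solyc09g007760 was at 276, 39.9 and 119.9 CPM in recovered and 290.0, 358 and 160.1 CPM in watered vein, and at 103, 27.3 and 73.6 CPM in recovered and 130.4, 220.4 and 132 CPM in watered intervein. The intervein groups did not overlap, as for 9.19% of all rows in that direction, and the estimates were -0.89 ± 0.76 (SE) and -1.24 ± 0.77. Solyc08g081190 was at 786, 229 and 497 CPM against 806, 976 and 827 CPM in vein, without overlap, as for 14.8% of all rows in that direction, and at 420.3, 189 and 380.3 CPM against 379, 805 and 636 CPM in intervein. Its estimates were -0.79 ± 0.46 and -0.88 ± 0.46.

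Among the 7 members with fitted values in both tissues, Solyc01g094690 had a positive estimate in each at T2. It was at 153, 21.8 and 104 CPM in recovered vein against 100.04, 65.9 and 50.2 CPM in watered vein, and at 54.1, 23.2 and 29.6 CPM in recovered against 22.7, 17.1 and 4.77 CPM in watered intervein. The lowest recovered vein value and the highest recovered intervein value are the 2 libraries whose tissue score goes against the label. The intervein groups did not overlap, as for 11% of all rows in that direction, though they did on raw library totals, and the estimate was 1.28 ± 0.89 (SE; edgeR adjusted p = 0.469), or 0.89 without those libraries. In vein it was 0.37 ± 0.87, or 0.82 without them, and -0.19 without recovered 1.

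Vein T2 recovered 2 was the lowest recovered vein library for Solyc01g094690, Solyc08g081190, Solyc12g056220, Solyc06g011350, Solyc09g007760 and Solyc11g069430, and intervein T2 recovered 1 the highest recovered intervein library for Solyc01g094690, Solyc08g081190, Solyc06g011350 and Solyc09g007760. Without both libraries the vein estimates were closer to 0 for Solyc11g069430 (-0.09), Solyc12g056220 (-0.01), Solyc09g007760 (-0.46) and Solyc08g081190 (-0.46), and Solyc03g096290 had -0.69. The median of the 7 members was then -0.09 in vein and -0.94 in intervein. Solyc06g011350 in intervein was at 10.6, 1.09 and 1.27 CPM in recovered and 7.26, 39.9 and 42.5 CPM in watered plants, with -2.77 ± 1.37 (SE), or -4.58 without both libraries, and was not called either way.

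The difference between the T2 and the T1 response was tested within each tissue. No member was called by edgeR, where 1.5% of all rows were called in vein and 10.6% in intervein. In each tissue 2 of the 8 members had an unadjusted p under 0.05. So had 3401 of the 19431 tested rows in vein and 5428 in intervein, so the member counts do not set the family apart. DESeq2 called 0 members, and 7.03% and 18.9% of all rows. Solyc03g096290 had a difference of 2.53 ± 1.19 (SE; edgeR adjusted p = 0.27) log2 units in vein and 2.62 ± 1.19 (adjusted p = 0.151) in intervein. Solyc12g056220 had 1.27 ± 0.60 in vein and 0.83 ± 0.60 in intervein, and Solyc01g094690 1.24 ± 1.23 and 2.85 ± 1.27. That 2.85 takes in intervein T1 drought 1, with 0 counts of Solyc01g094690, and intervein T2 recovered 1, its highest recovered intervein library at 54.1 CPM. Without the 2 T2 libraries that go against their labels, the T2 part of that value was 0.89 instead of 1.28. Solyc08g081190 had -0.31 ± 0.65 and 0.06 ± 0.65, with intervals from -1.67 to 1.04 and from -1.29 to 1.42. The difference of the T2 response between tissues was called for none by edgeR (0% of all rows) nor by DESeq2 (0.432% of all rows). At an unadjusted p under 0.05 there were 0 members and 1045 of the 19431 tested rows.

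The mean levels of watered plants differed over time for some members. In watered intervein Solyc11g069430 was at 144 ± 30.2 CPM (SD, n = 3) at T0, 123 ± 53.1 at T1 and 444 ± 275 at T2. Solyc06g011350 was at 1.96 ± 2.51, 4.53 ± 2.31 and 29.9 ± 19.7 CPM there. For both, intervein T2 watered 1, the library with the fewest counts (2718799), stood close to the highest T1 library. It had 191 against 183 CPM of Solyc11g069430 and 7.26 against 6.63 CPM of Solyc06g011350. Solyc03g096290 was at 125 ± 47.9, 321 ± 172 and 297 ± 80.2 CPM. These changes over time were not tested.

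Set in order of mean level, the 10 groups of Solyc11g069430 ran from vein T0 (867 ± 446 CPM; SD, n = 3) through the other watered and recovered vein groups to intervein T1 watered (123 ± 53.1 CPM), with vein T1 drought seventh at 231 ± 114 CPM. All vein groups of Solyc01g094690, from 117 ± 48.6 to 58.6 ± 26.7 CPM, lay above all its intervein groups, from 35.7 ± 16.3 to 10.3 ± 13.6 CPM. The drought groups were the lowest pair for Solyc03g096290 and Solyc12g056220 whatever the tissue. Neighbours in the order overlapped in all 9 pairs for each of these members. For Solyc09g007760 they overlapped in 8 of 9, the exception being intervein T0 (129 ± 15.2 CPM) above intervein T2 recovered (68 ± 38.3 CPM).

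The members varied together to different degrees over the 30 libraries, which share plants, tissue and scaling. On log2 CPM, Solyc08g081190 and Solyc11g069430 had a Pearson r of 0.79 (0.78 over the 15 vein and 0.69 over the 15 intervein libraries). Solyc12g056220 and Solyc11g069430 had 0.77, with 0.87 in vein and 0.52 in intervein. Solyc03g096290 followed the mean pattern of the other members that averaged at least 10 CPM least closely, with r = 0.44, and Solyc08g081190 most closely, with 0.82. Among all other tested genes, Solyc05g054210 (r = 0.91) and Solyc06g065440 (r = 0.89) were most like the mean pattern of the 7 members above 10 CPM, and Solyc01g087250 and Solyc01g088760 (both r = -0.88) most opposite to it. The same r was 0.97 and 0.85 within vein and 0.82 and 0.84 within intervein for the first pair, and -0.89 and -0.88 within vein and -0.76 and -0.75 within intervein for the second. The files give no names for these genes.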

How the data were processed

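Counts are raw whole-number gene counts that the authors deposited as a KBase gene count matrix, per the file headers. The submitters' processing notes name DESeq2 1.20.0, StringTie 1.3.3b, HISAT2 2.1.0 and FastQC 0.11.5. Neither the genome build nor the treatment of reads shared by near-identical genes is given in the sources used here. Members with close copies, and neighbours such as Solyc09g007760 and Solyc09g007765, are therefore uncertain. For drought against watered at T1 the authors' deposited table also gives log2 fold changes with their standard errors, a test score and p-values. The fold changes and adjusted p-values are quoted, and none of these columns entered the fit.

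All 30 libraries (2718799 to 13641845 counts) entered 1 edgeR 4.0.16 quasi-likelihood fit in R 4.3.3 with 1 coefficient per group, after filterByExpr (19431 of 35596 rows) and TMM scaling. Tests were two-sided, over 9 comparisons, with Benjamini-Hochberg adjustment over all tested rows and a call at adjusted p under 0.05. Standard errors are the log2 fold change over the root of its F value, and 95% intervals use 20 residual degrees of freedom. The code was run on simulated counts with the same spread set for every gene, which cannot show how well the tests perform on these libraries. CPM use TMM-scaled totals. The tissue score is mean log2 CPM (prior count 2) of genes called higher in vein at T0 minus that of genes called lower. Per the labels' protocols, T1 and T2 groups had 3 plants each, and both tissues were dissected from the same leaf; which libraries share a plant is not labelled, and for T0 the number of plants is not stated, so its spread may be technical.

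Members and comparisons were chosen with earlier results of these data known. All 10 members are named; the most alike and most opposite genes were taken by Pearson r. No other aquaporin could be listed, since 0 of the 10 member identifiers occur in the 41476 genes of the RefSeq table (assembly SLM_r2.1). Alternatives were other size factors, no filter, DESeq2 1.42.0, the compared groups alone, replicate blocks and left-out libraries.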

Additional observations from a re-analysis of the deposited data

How the results depend on the processing

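The 4 vein-preferred calls of the watered leaf were 3 to 5 over left-out libraries and 6 with the watered groups fitted alone. They were 3 with the replicate block by plant (same-numbered libraries of both tissues taken as 1 plant), with Solyc08g008050 lost. Solyc01g094690, Solyc12g056220 and Solyc11g069430 were called under every alternative run. The number of all rows called, in either direction, moved as well. It was 5301 in the main fit, 4065 with the block by plant and 6001 with the watered groups alone. Without vein T0 watered 3, which gave 3 member calls, 4872 rows were called. Without vein T0 watered 2, which gave 5, it was 4950. The vein count at T1 was 2 by DESeq2 (Solyc03g096290, log2 fold change -3.46, adjusted p = 0.00186, and Solyc12g056220, -1.56, adjusted p = 0.0153) and 0 elsewhere. The intervein count of 1 at T1 became 2 by DESeq2, which called 13.3% of all rows there, and 2 without the 2 T2 libraries out of place, with or without vein T1 drought 2, and 0 with the compared groups only. Over left-out libraries it was 0 to 1. The intervein difference between T2 and T1 responses was 0 to 1 over left-out libraries, the 1 being Solyc01g094690 without T1 drought 2. In the main fit that comparison called 10.6% of all rows. Intervein T1 drought 2 held the highest drought level of Solyc01g094690 there, 25.6 CPM against 0 and 5.2 CPM. The cause of these moves was not tested.

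Estimates that changed sign were not called in any case. With the replicate block (replicate number as a factor) Solyc06g011350 had -0.08 for intervein at T1 and -0.51 for vein at T2, and Solyc03g096290 had -0.02 between tissues, or -0.22 with the block by plant. With the compared groups only, Solyc06g011350 had -0.01 in vein at T2. Over left-out libraries Solyc06g011350 ran from -0.41 to 0.57 in vein at T2 and from -3.83 to 0.98 in intervein at T1, Solyc11g069430 from -0.96 to 0.62 in intervein at T1, Solyc03g096290 from -0.30 to 0.28 between tissues and Solyc01g094690 from -0.19 to 0.82 in vein at T2. The summed level of watered vein at T2 was 3381 CPM on raw totals against 2666 CPM.

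Deviations of same-numbered libraries correlated at -0.24 to 0.31, and the numbers were not taken as pairs in the main fit. Both limits came from vein against intervein in recovered plants, where 2 libraries go against their labels and the check cannot decide. The main fit thus treated parts dissected from the same leaf as independent libraries. The replicate block changed no call at T1 or T2. On raw library totals 3 members lay lower without overlap in recovered intervein (Solyc03g096290, Solyc08g081190 and Solyc09g007760), against 1 on scaled totals. The share of all rows was computed on scaled totals only (9.19%), so the raw count of 3 cannot be read as particular to the family. Depth limits Solyc08g008050, which had 139 counts over all libraries.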

Other observations

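The row Solyc09g007765, numbered between Solyc09g007760 and Solyc09g007770, was looked up after the values of the members were seen. No source used here describes it, so it is not counted as an aquaporin. Its log2 CPM had a Pearson r of 0.89 with Solyc09g007760 over the 30 libraries, and the handling of reads shared by neighbouring copies is not given. It was at 29.7, 31.4 and 26.8 CPM in intervein under drought and at 92.0, 149 and 182 CPM in watered intervein at T1, without overlap, with a log2 fold change of -2.26 ± 0.78 (SE; edgeR adjusted p = 0.0887). In vein it was at 101 ± 78.5 against 267 ± 120.3 CPM (SD, n = 3), with -1.40 ± 0.76 (edgeR adjusted p = 0.487).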
